A study of Homo sapiens with 12 samples.

Results

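The 8 genes described here, TTPAL, TMCO1, PLA2G16, CMTM6, MLEC, SFXN1, OSTM1 and IDNK, encode membrane proteins, lipid-handling proteins and a small sugar kinase. They were chosen by their symbols after they had been picked from these same libraries for large and tight rises in mRNA with SUPT4H1 siRNA. Their fold changes are therefore given as a description, without a test. They are 8 of 57704 gene rows in the count table, and all 8 were among the 13811 genes with enough counts to test. The cells were HEK293, an established human embryonic kidney line, and both groups carried the same stable reporter of an endogenous intronic sequence with DARP-EGFP. One group received pooled siRNAs against SUPT4H1, whose product SPT4 pairs with SPT5 in the transcription elongation factor DSIF, and the other received scrambled siRNAs, each at 100 nM for 72 hours. There were 6 libraries a group, each its own transfection, all begun from 1 culture, and the spread given here is therefore between transfections. ERCC RNA standards were added to lysates of 1000000 cells as mix 2 in the SUPT4H1 group and mix 1 in the scrambled group, so mix and group cannot be told apart.

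The products of 4 of these genes work in the endoplasmic reticulum (ER), lysosome or mitochondrion, and the other 4 handle lipids, protect a surface protein or act on a sugar. TMCO1 belongs to a translocon-associated complex that inserts multipass membrane proteins and is also described as an ER calcium leak channel. Malectin, the product of MLEC, is an ER lectin that binds glucosylated N-glycans on immature glycoproteins. TTPAL is a relative of the α-tocopherol transfer protein, of the CRAL-TRIO family that carries small lipids between membranes. PLA2G16, now named PLAAT3, is a phospholipase A and acyltransferase that has been studied in adipose tissue. CMTM6 is a MARVEL domain protein known for protecting the immune checkpoint ligand PD-L1 from lysosomal degradation. OSTM1 is the accessory subunit of the lysosomal chloride-proton exchanger CLC-7. SFXN1 carries serine into mitochondria, and IDNK phosphorylates gluconate, which feeds it into the pentose phosphate pathway.

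SUPT4H1 itself was at 174.9 to 198.7 CPM (counts per 1000000 endogenous counts, scaled by TMM) in the scrambled libraries and at 17.9 to 22.8 CPM in the SUPT4H1 libraries. Endogenous counts summed to between 6591194 and 20269171 per library. SUPT4H1 siRNA replicate 6 stood apart on the second principal component, at 38.3 against −19.6 to −4.05 for the others of its group. Of the HEK293 markers looked at, VIM was at 231 CPM or more, KRT8 at 26.5 or more and KRT18 at 69.3 or more in every library, and NEFM and PAX2 were low, at most 1.91 and 2.16 CPM. PTPRC (leukocytes) and HBB (erythroid cells) had 0 counts in every library, PECAM1 and ALB at most 2, and the fibroblast gene COL1A1 had 2.93 to 8.76 CPM.

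The 3′ ends of these mRNAs are what the assay read, and the sequences shown first are short windows of their annotated 3′ untranslated regions (GENCODE 29, GRCh38). An earlier scan of these same fold changes had named the words AGCCTT and ACATCA, so their presence in risen genes is no independent evidence. The line for each gene gives the first match in its 3′ UTR on the transcribed strand, 5′ to 3′, with the word in capitals.
TTPAL: cattttggggtaAGCCTTtggttactttaa
TMCO1: ctagacacacacACATCAgactggcaactg
PLA2G16: cgatgactttatACATCAagggggtcttgt
CMTM6: tgtatttcactcAGCCTTaaatgttataat
MLEC: agaaaaaaacacACATCAattaaaggagac
SFXN1: aagatccacattAGCCTTttagaataaagc
OSTM1: ttaatatgttgtACATCAcaataatatata
At least 1 of these words was present in 7 of the 8 annotated 3′ UTRs, and both words were present in 6. Among 11997 tested genes with an annotated 3′ UTR, 43.4% held AGCCTT, 33.8% held ACATCA, 56.6% held either and 20.6% held both.

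Long 3′ UTRs hold more words of any kind, and 7 of the 8 were longer than the median of 1477 bases over all tested genes. In TTPAL (5062 bases) either word occurred 7 times, where genes with a 3′ UTR within 1.3-fold of that length had a mean of 3.09 matches and 93.2% had at least 1. TMCO1 (3730 bases) had 6 matches against a mean of 2.29. OSTM1 (3376 bases) had 9 matches, 7 of them ACATCA, against a mean of 2.10, and 0.488% of the 2049 genes of like length had as many or more. CMTM6 (2648 bases) had 4 matches against 1.70, SFXN1 (3008 bases) had 4 against 1.89, and MLEC (5319 bases) had 6 against 3.25. PLA2G16 (1750 bases) had 1 match, near the mean of 1.09 for its length. IDNK, whose longest annotated 3′ UTR has 443 bases, had none. The share of genes of like length with as many matches or more was 4.60% for TMCO1, 5.42% for TTPAL, 10.6% for CMTM6, 12.2% for MLEC, 13.1% for SFXN1 and 62.9% for PLA2G16. The words came from these same fold changes, so nothing is read from the low shares. The siRNA sequences were not at hand, and no match to them was tested.

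RefSeq promoter windows (GRCh38.p14) were found for 6 of the 8 genes, with 9 entries in all. They are shown for 3 genes that rose together but differ in promoter letters: TMCO1, the largest rise with an entry, and CMTM6 and OSTM1, which were rich in GC boxes. Capitals mark, on either strand, exact matches to TATAAA (the TATA box core), CCAAT (the CCAAT box), GGGCGG (the GC box) and CACGTG (the E box). They also mark CCGGAA, a form of the site bound by ETS factors, whose other forms were not searched. Overlapping GC boxes run together. The TMCO1 window lies at chr1:165768873-165769172 on the minus strand, that of CMTM6 at chr3:32502803-32503102 on the minus strand, and that of OSTM1 at chr6:108074692-108074991 on the minus strand.
TMCO1: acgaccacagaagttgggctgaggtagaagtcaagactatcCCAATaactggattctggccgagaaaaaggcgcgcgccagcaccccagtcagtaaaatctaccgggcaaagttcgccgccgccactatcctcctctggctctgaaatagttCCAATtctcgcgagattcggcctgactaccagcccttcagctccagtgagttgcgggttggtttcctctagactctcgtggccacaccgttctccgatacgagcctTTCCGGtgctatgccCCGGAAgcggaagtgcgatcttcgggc
CMTM6: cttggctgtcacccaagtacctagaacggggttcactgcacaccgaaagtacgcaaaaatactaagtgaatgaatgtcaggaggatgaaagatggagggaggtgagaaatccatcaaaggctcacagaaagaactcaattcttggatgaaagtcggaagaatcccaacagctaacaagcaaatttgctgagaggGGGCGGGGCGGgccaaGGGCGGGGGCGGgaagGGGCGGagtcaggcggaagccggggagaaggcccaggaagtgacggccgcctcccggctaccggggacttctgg
OSTM1: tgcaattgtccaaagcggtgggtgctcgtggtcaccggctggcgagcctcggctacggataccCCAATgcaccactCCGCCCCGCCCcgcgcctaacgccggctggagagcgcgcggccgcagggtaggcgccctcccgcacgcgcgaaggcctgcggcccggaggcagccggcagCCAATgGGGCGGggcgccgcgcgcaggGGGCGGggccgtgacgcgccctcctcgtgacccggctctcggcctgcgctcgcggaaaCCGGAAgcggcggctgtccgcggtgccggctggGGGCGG
The TMCO1 window shown held 2 CCAAT boxes, 2 CCGGAA words and 0 GC boxes. Another TMCO1 entry, not shown, held 1 CCAAT box, 2 CCGGAA words and 0 GC boxes. The CMTM6 window held 5 GC boxes and neither CCAAT nor CCGGAA. That of OSTM1 held 5 GC boxes, 2 CCAAT boxes and 1 CCGGAA word. Over all 35116 RefSeq promoter windows, 34.6% held CCAAT, 45.0% GGGCGG, 17.2% CCGGAA, 11.5% TATAAA and 7.26% CACGTG. Of the 6 genes, 4 had a CCAAT box in at least 1 entry, 4 a GC box, 3 the word CCGGAA and 0 a TATA box. No word searched was found in all of them. These counts take all entries of a gene together, and the shares above are per window, so they are not like for like. A match here describes letters and not a bound site.

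TTPAL (ENSG00000124120, chromosome 20 from 44475886 to 44494603, GRCh38, plus strand) had the largest rise of the 8. Its level ran from 1.77 to 3.79 CPM with a median of 3.19 in the scrambled libraries, and from 16.3 to 24.1 CPM with a median of 17.6 in the SUPT4H1 libraries. The highest scrambled library was 4.30-fold below the lowest SUPT4H1 library. The relative log2 fold change was 2.60 (SE 0.16), and 4 of 13811 tested genes had a larger one. Counts behind these levels were few in the scrambled group, at 13 to 74 per library, and 153 to 211 in the other. The spread between libraries there (CV 24.8%) was above the 14.8% that counting alone gives.

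TMCO1 (ENSG00000143183, chromosome 1 from 165724293 to 165827755, minus strand) ranged from 35.9 to 45.8 CPM with a median of 41.4 in the scrambled libraries. With SUPT4H1 siRNA it ranged from 166 to 209.8 CPM with a median of 187. Both groups were tight and far apart, with CVs of 9.51% and 8.75% and a log2 fold change of 2.20 (SE 0.08). MLEC (ENSG00000110917, chromosome 12 from 120686869 to 120701864, plus strand), the other ER gene, ranged from 59.9 to 71.2 CPM (median 67.9) and from 163 to 264 CPM (median 193). Its log2 fold change was 1.57 (SE 0.09). The 264 CPM came from SUPT4H1 siRNA replicate 6, and the other 5 libraries of that group did not exceed 194 CPM.

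PLA2G16 (ENSG00000176485, chromosome 11 from 63573195 to 63616883, minus strand) ranged from 22.5 to 29.6 CPM (median 27.4) with scrambled siRNA and from 83.3 to 107 CPM (median 95.0) with SUPT4H1 siRNA. The groups did not overlap, and the log2 fold change was 1.81 (SE 0.09). CMTM6 (ENSG00000091317, chromosome 3 from 32481312 to 32503408, minus strand) ranged from 45.7 to 65.3 CPM (median 56.0) and from 148 to 180.3 CPM (median 164), a log2 fold change of 1.56 (SE 0.09). CMTM6 and MLEC rose by nearly the same factor, 2.95-fold and 2.98-fold.

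OSTM1 (ENSG00000081087, chromosome 6 from 108041409 to 108165854, minus strand) ranged from 24.2 to 27.8 CPM (median 25.6) and from 58.9 to 67.6 CPM (median 63.0), a log2 fold change of 1.29 (SE 0.08). SFXN1 (ENSG00000164466, chromosome 5 from 175477062 to 175529742, plus strand) had the smallest rise and the tightest values. It ranged from 89.9 to 94.8 CPM (median 92.2) and from 198 to 218 CPM (median 213), a log2 fold change of 1.20 (SE 0.06). In the scrambled group its CV of 1.92% was below the 2.80% that counting alone gives, and in the other group 3.34% stood against 2.28%. The lowest SUPT4H1 library was replicate 6, at 198 CPM, where the other 5 lay between 212 and 218 CPM.

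IDNK (ENSG00000148057, chromosome 9 from 83623049 to 83644130, plus strand) was the least counted member, with 14 to 48 counts per scrambled library and 76 to 112 per SUPT4H1 library. It ranged from 1.40 to 2.82 CPM (median 2.03) and from 8.11 to 12.4 CPM (median 9.14). The libraries of both groups lay apart, and the log2 fold change was 2.18 (SE 0.18). For all 8 genes the groups did not overlap, which was so in the same direction for 10.2% of tested genes. The choice of members for large, tight rises fixes that count.

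**Figure D1:**
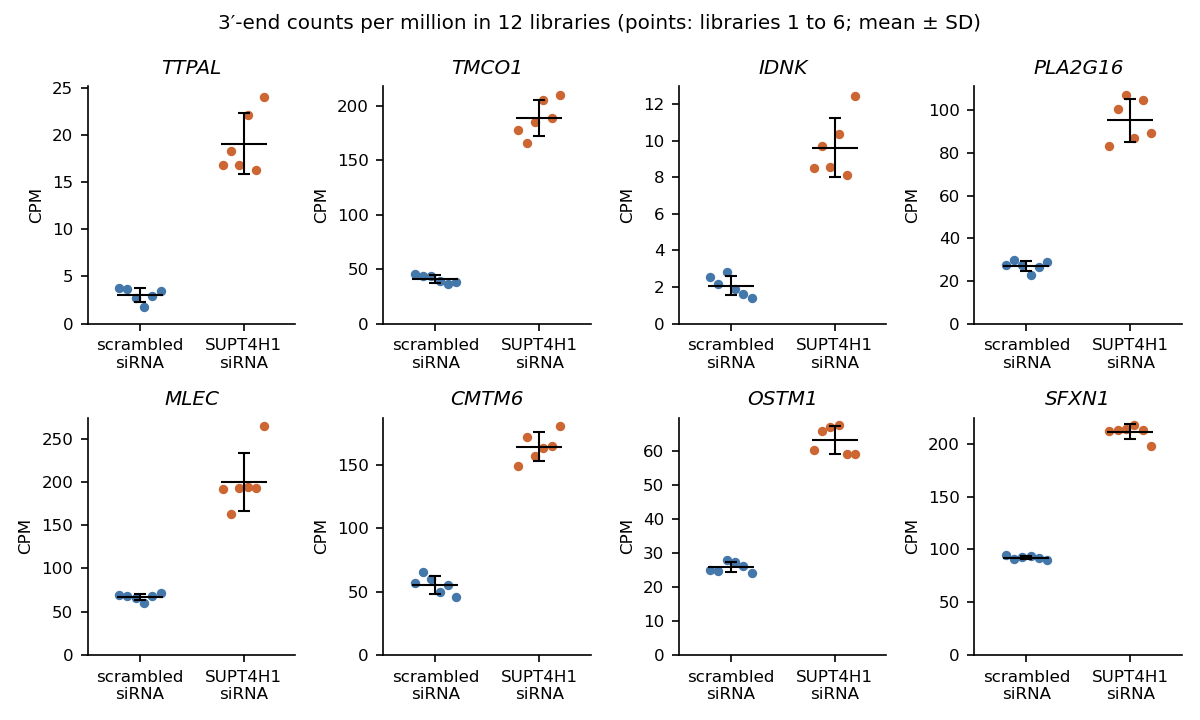
Levels of the 8 genes in CPM (y axis, from 0) in 6 scrambled and 6 SUPT4H1 siRNA libraries, with points in replicate order and the mean ± SD as bars. In every panel all 6 SUPT4H1 points lie above all 6 scrambled points, and for MLEC and SFXN1 the last SUPT4H1 point (replicate 6) stands away from the others of its group.

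Ordered by relative log2 fold change, the genes ran TTPAL, TMCO1, IDNK, PLA2G16, MLEC, CMTM6, OSTM1 and SFXN1. TMCO1 and IDNK differed by 0.02 (SE 0.20), MLEC and CMTM6 by 0.01 (SE 0.13), and OSTM1 and SFXN1 by 0.09 (SE 0.10), each less than its standard error. The other neighbours in this order differed by 1.85 to 2.36 standard errors. The smallest rise, that of SFXN1, was reached by 148 of all tested genes, itself included.

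The members did not move as 1 block among libraries of a group. Within the SUPT4H1 group, replicate 6 was the highest library for 5 of the 8 genes and the lowest for 2, SFXN1 and OSTM1. Within the scrambled group, replicate 4, the library with the fewest counts of that group, was the lowest for 3 genes and replicate 6 for 4. Without SUPT4H1 siRNA replicate 6 or any other single library, the log2 fold changes stayed within 1.48 to 1.64 for MLEC and 1.19 to 1.22 for SFXN1.

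The same genes were read against the ERCC standards of subgroup B, which have the same nominal concentration in both mixes. By this scaling the median log2 fold change of all tested genes was −0.82. The labels give 1000000 cells for every sample, but the cells in each lysate were not counted in these data, so fewer cells and less RNA per cell cannot be told apart. All 8 genes kept a log2 fold change above 0. It was 1.84 (SE 0.35) for TTPAL, 1.40 (SE 0.32) for TMCO1, 1.40 (SE 0.36) for IDNK and 1.05 (SE 0.32) for PLA2G16. The others had 0.78 (CMTM6), 0.77 (MLEC), 0.46 (OSTM1) and 0.38 (SFXN1), each with an SE of 0.31 to 0.32.

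Per 1000 counts of these standards, TTPAL had 1.16 to 2.14 counts (median 1.65) with scrambled siRNA and 3.24 to 10.3 (median 6.25) with SUPT4H1 siRNA. TMCO1 had 18.6 to 33.8 (median 22.1) and 35.6 to 119 (median 57.5). For these genes, PLA2G16 and IDNK the groups did not overlap on this scale either. SFXN1 had 39.6 to 80.7 (median 50.4) and 41.2 to 134 (median 59.1), so that 1 of 6 SUPT4H1 libraries lay above the highest scrambled one, as for OSTM1. For CMTM6 and MLEC 4 of 6 did. The share of all tested genes without overlap on this scale was not worked out. The members were picked for large, tight rises in these same libraries, so nothing is read from these counts.

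SUPT4H1 siRNA replicate 5, whose ratio of endogenous to spike-in counts was within the scrambled libraries' range, had the highest spike-in-scaled level of all 8 genes in its group. Leaving it out gave spike-in-scaled log2 fold changes of 0.09 for SFXN1, 0.21 for OSTM1, 0.49 for CMTM6, 0.49 for MLEC, 0.70 for PLA2G16 and 1.63 for TTPAL. The median over the 8 was 0.91 with it and 0.60 without it, and 1.69 in relative abundance.

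**Figure D2:**
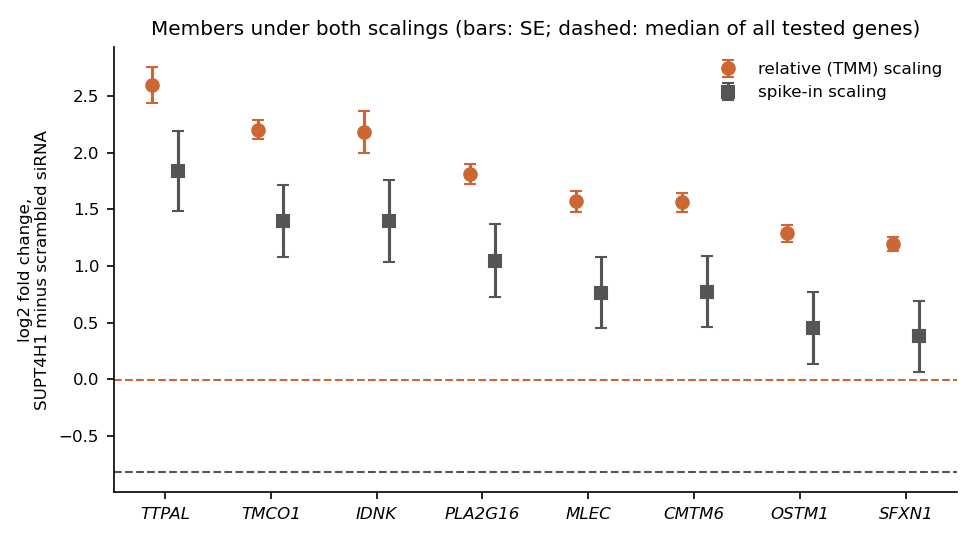
Log2 fold change of SUPT4H1 minus scrambled siRNA (y axis) for the 8 genes, as relative abundance (circles) and by spike-in scaling (squares), with SE bars; dashed lines give the median of all tested genes, −0.00 and −0.82. Both series lie above 0 for every gene, and SFXN1 and OSTM1 have the lowest spike-in-scaled values, 0.38 and 0.46.

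The genes next to the members on the chromosome were not part of the choice, and their calls come from the fit over all genes (quasi-likelihood test of edgeR, with a Benjamini-Hochberg adjusted p under 0.05 as the threshold). Of 18 tested genes that overlap a member or are its nearest tested neighbour, 4 rose and 3 fell (22.2% and 16.7%), where 20.0% of all tested genes rose and 20.2% fell. With spike-in scaling 0 rose and 12 fell. Their median relative log2 fold change was −0.04. The rises were small beside those of the members: SERINC3, which ends 1.62 kb from TTPAL on the opposite strand and encodes a membrane protein, was at 0.31 (adjusted p = 0.0057), and UBQLN1, 15.8 kb from IDNK, at 0.31 (adjusted p = 0.00075). POP5, beside MLEC, was at 0.44 (adjusted p = 0.0016) and MSX2, 746 kb from SFXN1, at 0.40 (adjusted p = 0.0093). All 4 of these had values below 0 with spike-in scaling. The pseudogene RPL37AP1 beside TTPAL (−0.50, adjusted p = 0.011), SLC3A2, 684 kb from PLA2G16 (−0.43, adjusted p = 0.00042) and DYNC1LI1 beside CMTM6 (−0.30, adjusted p = 0.0098) fell.

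Overlap matters for these values because the sources used here do not give the strand setting of the counting. Of 9 annotated genes that overlap a member, all on the opposite strand, 2 had enough counts to test. CMTM7, a relative of CMTM6 that shares 1756 bases of genomic span with it at the 3′ end, was at 35.1 ± 2.66 and 34.7 ± 4.43 CPM (SD, n = 6 each) with −0.01 as the log2 fold change (SE 0.09, adjusted p = 0.92 by edgeR). UCK2 shares 225 bases with TMCO1 at the annotated 5′ ends of both genes, while the assay reads 3′ ends. UCK2 was at 46.7 ± 2.69 and 42.9 ± 3.59 CPM (SD, n = 6 each), with −0.12 as the log2 fold change (SE 0.08, adjusted p = 0.25 by edgeR). The other 7, among them OSTM1-AS1, had means of 0.188 CPM or less in both groups. Reads that fall in a shared stretch cannot be told apart without strand.

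**Figure D3:**
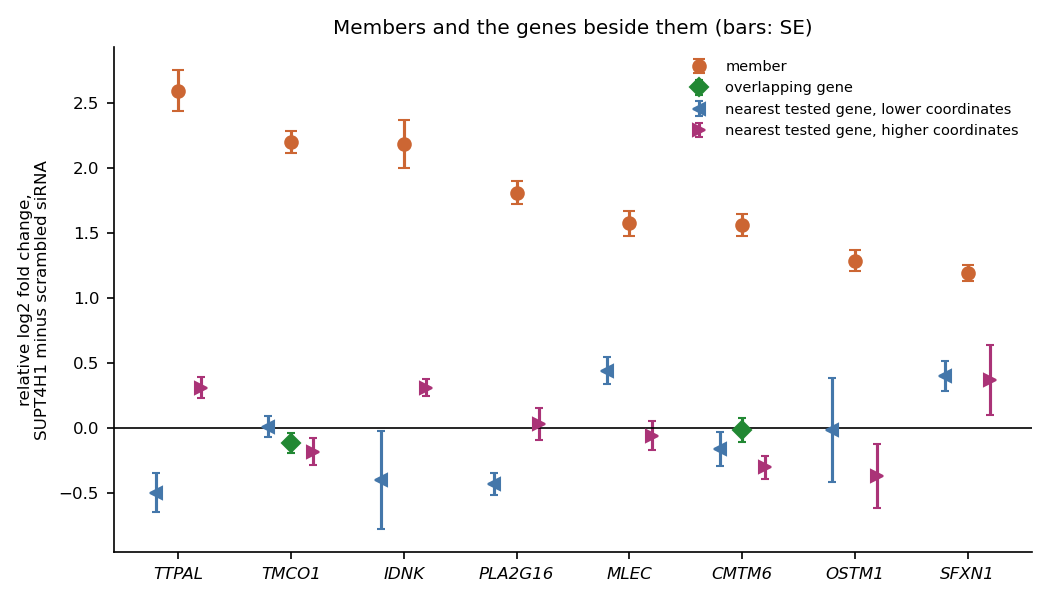
Relative log2 fold change (y axis, SE bars) of each member (circles) and of the tested genes that overlap it (diamonds) or lie nearest at lower (left triangles) and higher (right triangles) coordinates. The members lie between 1.20 and 2.60, and the genes beside them between −0.50 and 0.44.

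Relatives, partners and pathway genes of the members were listed by function. Of 250 symbols in 11 lists, 245 were found and 206 were tested: 57 rose and 45 fell (27.7% and 21.8%), with a median log2 fold change of 0.04, where all tested genes had 20.0% and 20.2%. By spike-in scaling 0 rose and 116 fell, as over all tested genes 43 rose and 8152 fell in place of 2768 and 2789. Of the 206, 2 (SFXN2 and LAMP1) reached the smallest relative rise of a member, as did 148 of all 13811 tested genes, members included. Of the risen genes named from these lists, SFXN2, LAMP1, GDAP2, ARHGAP1, LYPLA2, AGPAT1, MARVELD1, CMTM3 and RPIA kept values above 0 with spike-in scaling, all without a call, and the others had values below 0.

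Of the 4 tested relatives of SFXN1, 1 rose and 1 fell (25% each, near the 20.0% and 20.2% of all tested genes). SFXN2, a mitochondrial sideroflexin like SFXN1, rose from 9.24 ± 1.66 to 25.3 ± 4.06 CPM (SD, n = 6 each), a log2 fold change of 1.46 with an SE of 0.13 (adjusted p = 4.05e-08 by edgeR). SFXN3 went down from 16.5 ± 1.97 to 6.80 ± 1.54 CPM (SD, n = 6 each), a log2 fold change of −1.26 with an SE of 0.14 (adjusted p = 7.84e-07 by edgeR). SFXN4 (−0.10, adjusted p = 0.46) and SFXN5 (0.26, adjusted p = 0.16) did not pass the test, and without SUPT4H1 siRNA replicate 6 SFXN4 did (−0.22, adjusted p = 0.012). With spike-in scaling SFXN2 was at 0.65 and no longer called.

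Among 17 tested MARVEL domain relatives of CMTM6, 3 rose and 3 fell (17.6% each, near the 20.0% and 20.2% of all tested genes; 5 and 3 genes without SUPT4H1 siRNA replicate 6). CMTM3 (1.02), MARVELD1 (1.01) and MYADM (0.54) rose in relative abundance. The tight junction gene MARVELD3 (−1.89), SYNGR3 (−1.20) and CKLF (−0.53) fell. CMTM4, which is known to share the PD-L1 stabilising role, was at −0.18 (edgeR adjusted p = 0.19), and CMTM8 was at −0.17 (adjusted p = 0.33). The PD-L1 gene CD274 had at most 8 counts in any library and was not tested, so its level cannot be set beside that of CMTM6. The median of these 17 was 0.01.

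Of the CRAL-TRIO relatives of TTPAL, 9 were tested, 2 rose and 2 fell (22.2% each, near the shares over all tested genes; median −0.04). GDAP2 (0.96) and ARHGAP1 (0.87) rose, PTPN9 (−0.52) and BNIP2 (−0.31) fell, and SEC14L1 (0.11, edgeR adjusted p = 0.56) and SEC14L2 (−0.14, adjusted p = 0.69) did not pass. TTPA, the closest relative in name, had 3 and 5 counts summed over the 6 libraries of each group. The PLA2G16 relative HRASLS was at −0.33 (edgeR adjusted p = 0.026), a call lost without a low-count filter (adjusted p = 0.071) and without any 1 of scrambled siRNA replicates 2 and 3 or SUPT4H1 siRNA replicates 3, 4 and 5 (adjusted p between 0.053 and 0.069).

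Enzymes of phospholipid remodelling, with HRASLS among them, were called in both directions, 11 risen and 10 fallen of 30 (36.7% and 33.3%; median −0.02; 5 fallen without SUPT4H1 siRNA replicate 4). Over all tested genes 20.0% rose and 20.2% fell. The lysophospholipase gene LYPLA2 (0.94), the acyltransferase genes AGPAT1 (0.81) and LCLAT1 (0.82) and the platelet-activating factor acetylhydrolase subunit gene PAFAH1B2 (0.60) rose. The other tested LYPLA, AGPAT and PAFAH1B genes were picked after their values were seen. LYPLA1 (−0.32), AGPAT4 (−0.36), AGPAT2 (−0.41), PAFAH1B1 (−0.25) and PAFAH1B3 (−0.42) fell, AGPAT5 (0.41) rose and AGPAT3 (−0.01) was not called.

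The lysosomal list around OSTM1 held the largest share of risen genes, 17 of 30 (56.7%) with 3 fallen (10%). Its median was 0.30, or −0.52 with spike-in scaling. All tested genes had 20.0% risen, 20.2% fallen and a spike-in-scaled median of −0.82. The 3 fallen genes, picked after their values were seen, were SCARB2 (−0.41), SNX10 (−0.40) and ATP6V1F (−0.31). The lysosomal membrane glycoprotein genes LAMP1 (1.34) and LAMP2 (0.65) and the proton pump subunit genes ATP6V1E1 (0.60) and ATP6V1B2 (0.66) rose. LAMP1 went from 59.3 ± 2.06 to 150 ± 21.5 CPM (SD, n = 6 each, SE 0.09, edgeR adjusted p = 3.02e-10), and all 6 SUPT4H1 libraries lay above all scrambled ones. CLCN7, the exchanger that OSTM1 accompanies, was picked after its value was seen and did not pass the test (4.87 ± 0.602 and 6.26 ± 1.24 CPM, SD, n = 6 each, log2 0.38, SE 0.16, edgeR adjusted p = 0.065).

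The lists around the ER members differed in their shares of risen genes, and all their medians lay below 0 with spike-in scaling. All tested genes had 20.0% risen, 20.2% fallen and a spike-in-scaled median of −0.82. Of 27 genes of the oligosaccharyltransferase and of glycoprotein quality control, the setting in which malectin works, 10 rose and 1 fell (37.0% and 3.70%). Their median was 0.20, and −0.64 when scaled to the standards. The lectin chaperone genes CANX (0.56) and CALR (0.70), the glucosidase II subunit gene PRKCSH (0.65) and the catalytic subunit gene STT3A (0.47) rose. Of 31 translocon and insertase genes around TMCO1, 7 rose and 3 fell (22.6% and 9.68%), a risen share near the 20.0% of all tested genes. Without SUPT4H1 siRNA replicate 6, 10 rose and 4 fell, and 5 fell without SUPT4H1 siRNA replicate 4. The median of the 31 was 0.02, and −0.78 when scaled to the standards. The Sec61 channel genes SEC61A1 (0.59) and SEC61B (0.50) rose, while SEC61A2 (−1.32) and CAMLG (−0.40), which takes part in tail-anchored protein insertion, fell. CCDC47, which acts beside TMCO1 in membrane insertion and was picked after its value was seen, fell by 0.25 on the log2 scale (edgeR adjusted p = 0.012). Of 13 ER calcium genes, 2 rose and 3 fell (15.4% and 23.1%; 4 and 3 genes without SUPT4H1 siRNA replicate 6; median −0.09). TMBIM6 (0.29) and STIM2 (0.31), the latter picked after its value was seen, rose. SARAF (−0.42), ITPR3 (−0.61) and the calcium pump gene ATP2A2 (−0.24) fell.

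The pathways fed by SFXN1 and IDNK held more fallen than risen genes, where 20.2% of all tested genes fell and 20.0% rose. Of 19 genes of serine and one-carbon metabolism, 9 fell and 1 rose (47.4% and 5.26%, median −0.35), with the mitochondrial folate enzyme genes MTHFD1L (−0.93) and MTHFD2 (−0.80) and the serine synthesis genes PSPH (−0.80) and PSAT1 (−0.60) among the fallen. Without scrambled siRNA replicate 4, 8 fell and 2 rose. Of 26 genes of the pentose phosphate pathway and of sugar kinases, 10 fell and 3 rose (38.5% and 11.5%, median −0.07). RPIA (1.12), PRPS2 (0.50) and TKT (0.48) rose in relative abundance, and the fructokinase gene KHK (−0.67) fell.

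**Figure D4:**
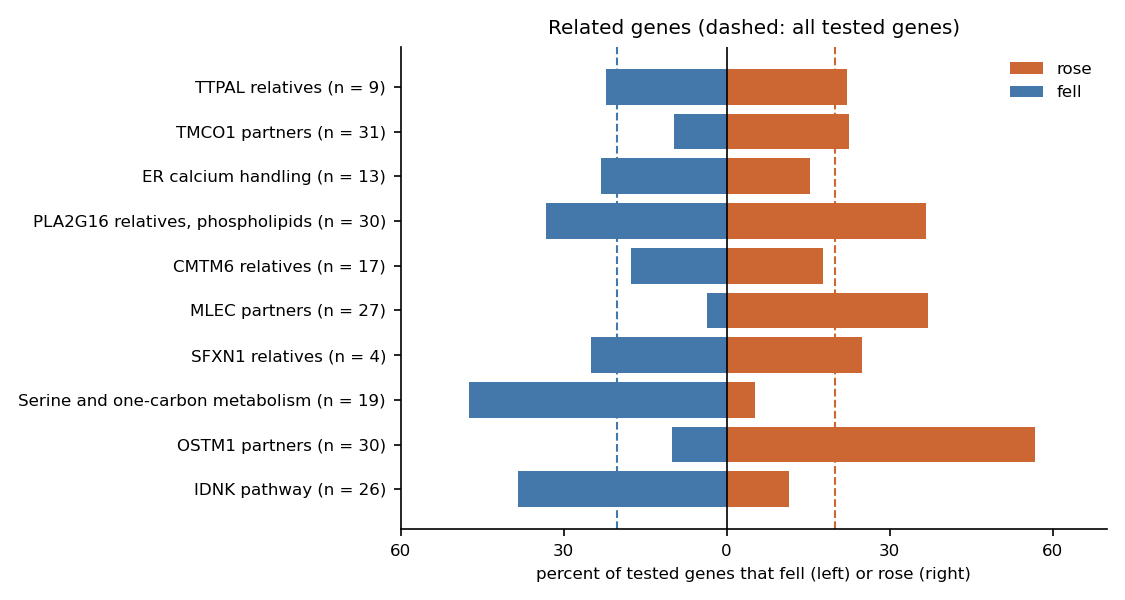
Share of tested genes in each list of relatives, partners and pathway genes that rose (right) or fell (left) in relative abundance, in percent; n is the number tested and dashed lines mark the shares over all tested genes, 20.0% and 20.2%. The lysosomal list around OSTM1 reaches furthest to the right (56.7%) and serine and one-carbon metabolism furthest to the left (47.4%).

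Among 10659 other genes that averaged at least 5 CPM, those whose log2 CPM over the 12 libraries were most like the mean standardised profile of the members were MOV10 (Pearson r = 0.994), PDLIM5, RPAIN, JARID2 and VCAN (r from 0.990 to 0.993). This likeness is set mainly by the step between the groups, which the members were picked for. MOV10, an RNA helicase gene, went from 39.6 ± 3.57 to 140 ± 6.94 CPM (SD, n = 6 each), and PDLIM5 from 199 ± 6.30 to 295 ± 7.26 CPM, so that a like profile did not mean a like size of rise.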

How the data were processed

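QuantSeq 3′ mRNA libraries (Lexogen, forward kit) were read for 12 samples. The authors deposited raw read counts per gene in 1 table, with 57704 genes, 92 ERCC standards and a GFP row. Per the submitters' processing notes, STAR, FastQC 0.11.5, MultiQC and R 3.4.3 were used with build GRCh38.p10; the counting tool, annotation release and strand setting do not appear in the sources used here. ERCC standards took 0.574% to 2.45% of counts, and they and GFP stayed out of library sizes and gene tests.

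Counts were fitted with edgeR 4.0.16 (TMM, filterByExpr, robust quasi-likelihood test, R 4.3.3) over all 12 libraries without covariates, with Benjamini-Hochberg adjustment over 13811 genes and a threshold of 0.05. SE is the fold change divided by the root of its F statistic. Spike-in scaling used the summed counts of 23 subgroup B standards, assigned from general knowledge of the product. After it, the other subgroups lay at −2.02 (A), 0.59 (C) and 0.99 (D), where −2, 0.58 and 1 are nominal. Each of 30 same-group pairs of libraries differed by more than counting noise (chi-square over its degrees of freedom at least 4.23). Alternatives were DESeq2 1.42.0, its size factors, spike-in scaling, no filter, the replicate block and leaving out each library. The fit was tested on simulated counts. Positions and 3′ UTRs (the coding transcript with the longest one) came from GENCODE 29, and promoters from RefSeq.

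The members and lists were chosen with earlier results of these data known. Named genes are the members, SUPT4H1, their tested direct relatives, up to 4 called genes of a list by adjusted p, overlapping and neighbouring genes, and the 5 genes of most like profile (log2 of CPM plus 0.5); the text names part of them. Exceptions are said to be picked after their values were seen.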

Additional observations from a re-analysis of the deposited data

Results flagged for a closer look

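Each set of 6 values of 89 named genes was examined for a library farther from the others than Dixon's 95% critical value allows. Of 178 sets, 19 held one, where chance gives about 8.9, and 13 of the 19 were SUPT4H1 siRNA replicate 6.

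Among the members, MLEC was at 264 CPM in that replicate, against 163 to 194 CPM in the other 5 SUPT4H1 libraries. SFXN1 was at 198 CPM there, against 212 to 218 CPM. Without it the log2 fold changes were 1.48 for MLEC and 1.22 for SFXN1, in place of 1.57 and 1.20.

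In the same replicate, relatives and neighbours that stood high were THOC3 (264 CPM, the others 117 to 171), RPIA (57.6 CPM), SFXN4 (167 CPM), PLLP (7.75 CPM) and OCLN (3.80 CPM). Those that stood low were CALR (702 CPM, the others 1085 to 1295), TMBIM6 (314 CPM), ALDH9A1 (83.8 CPM), MTHFD1L (41.7 CPM), CMTM8 (8.63 CPM) and RPL37AP1 (4.09 CPM).

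In other SUPT4H1 libraries, SFXN2 was high in replicate 4 (33.3 CPM), CMTM4 high in replicate 2 (29.0 CPM) and SEC14L1 low in replicate 3 (11.3 CPM). In scrambled libraries, KHK was high in replicate 6 (15.6 CPM), CMTM3 in replicate 3 (11.3 CPM) and SEC14L2 in replicate 5 (4.28 CPM).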

How the results depend on the processing

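The relative log2 fold changes of the 8 genes stayed above 0 in every alternative run, and over the 16 that keep relative scaling none moved by more than the spread between replicates. With spike-in scaling the median over the 8 was 0.91 in place of 1.69, and leaving out single libraries gave 1.66 to 1.73. With both together, chosen after seeing the data, it was 0.60 without SUPT4H1 siRNA replicate 5 and 1.00 without scrambled siRNA replicate 4. Spike-in scaling shifts all genes by −0.82 at the median. It gave 43 risen and 8152 fallen genes in all, 0 and 116 among related genes, and 0 and 12 among neighbouring genes. Leaving out single libraries gave 2526 to 2907 risen and 2482 to 3000 fallen genes, 55 to 72 and 38 to 46 among related genes, and 4 and 3 among neighbouring genes. DESeq2, its size factors and no filter kept all these counts within 1.5-fold. Replicate numbers did not pair the samples (correlations of same-numbered libraries from −0.32 to 0.07, and 0 of 6 libraries matched best with their own number). With the replicate block 2411 genes rose and 2426 fell, 54 and 38 among related genes. Depth limits TTPAL and IDNK most, with as few as 13 and 14 counts in a scrambled library.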
